A study of Mus musculus with 24 samples.

Results

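10 mouse genes that stand for p53 activity and cellular senescence were followed in 24 lung transcriptomes: Cdkn1a, Cdkn2a, Mdm2, Ccng1, Phlda3, Bax, Gdf15, Trp53inp1, Eda2r and Zmat3. Their rows in the count table are those whose Ensembl identifier carries 1 of these symbols. All 10 were found among the 78275 genes of the table, and all 10 passed the filter on low counts that left 17490 genes for testing. None of the 10 passed the threshold in any of 12 comparisons among diesel exhaust, pirfenidone and remote ischemic conditioning. Within groups, Mdm2 varied least for its level and Cdkn2a and Gdf15 varied most. The value farthest above its gene's median was a Bax level of 150 CPM in 1 library, where CPM are counts scaled to the size of the library.

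The study asked whether remote ischemic conditioning eases a lung fibrosis that diesel exhaust brings on in mice. All animals were male C57BL/6 mice of 20 weeks, and each of 8 groups had 3 libraries of polyadenylated RNA from lung tissue. Exposed mice breathed exhaust in a chamber for 30 min a day, 5 days a week, over about 8 weeks. Conditioning closed off the blood flow of the left leg in 3 cycles of 5 min with reperfusion between them, 3 days a week for 4 weeks. Pirfenidone, an antifibrotic drug used as the standard of care, was given by mouth at 300 mg/kg a day on 6 days a week, in 0.5% carboxymethylcellulose. The group C had no treatment and RIC had conditioning alone. The other 6 groups all had exhaust: alone (DE), with pirfenidone (DE+PFD), with conditioning before the exposure, called preconditioning (RIC+DE), with conditioning during it, called perconditioning (DE+RIC), and with pirfenidone together with preconditioning (RIC+DE+PFD) or perconditioning (DE+PFD+RIC). None of the 8 groups is labelled as having the carboxymethylcellulose vehicle alone or a sham conditioning. The labels also give each library a batch date, in March (9 libraries), October (14) or November (1, the library DE+RIC 3), without saying what was done on it. Nothing in the labels says whether each library came from a separate animal, so the tests measure the spread between libraries.

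The transcription factor p53 is held at a low level by Mdm2, a ubiquitin ligase that marks it for destruction and that p53 itself switches on. When DNA damage or another stress frees p53, its targets stop the cell cycle, set off cell death or repair, or feed back on the pathway. Cells that stay arrested become senescent, a state marked by the cell cycle inhibitors Cdkn1a (p21) and Cdkn2a (p16 and p19Arf), and senescent epithelium and fibroblasts are a known feature of fibrotic lung.

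The DNA motif of p53 is a 10-base unit, the p53 decamer consensus, that is its own reverse complement, and a full site is a pair of such units. The windows from 250 bases before to 50 bases after the annotated starts were searched for exact copies, on a RefSeq table of mouse promoters (GRCm38.p6). In that table were 8 of the 10 genes, with 11 windows between them; Zmat3 and Trp53inp1 were not. One window, that of Cdkn1a, held 2 copies no more than 13 bases apart, an arrangement found in 24 of all 32851 windows (0.0731%). Including it, 4 of the 11 windows held at least 1 copy, against 2745 of all windows (8.36%). The stretches around these copies are shown because the 4 genes are grouped here as p53 targets and these are the letters that match its motif near their starts. Each is read 5′ to 3′ on the gene's own strand, with exact copies of the 10-base unit in capitals.
Cdkn1a promoter, chr17:29090886-29090957, plus strand: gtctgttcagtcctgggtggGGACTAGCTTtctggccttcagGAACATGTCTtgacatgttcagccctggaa
Mdm2 promoter, chr10:117710915-117710964, minus strand: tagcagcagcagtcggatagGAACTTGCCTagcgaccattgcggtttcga
Ccng1 promoter, chr11:40755442-40755491, minus strand: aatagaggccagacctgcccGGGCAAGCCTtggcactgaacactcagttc
Bax promoter, chr7:45467070-45467119, minus strand: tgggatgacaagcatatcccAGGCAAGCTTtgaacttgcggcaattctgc
The copies in Cdkn1a begin 73 and 51 bases before the annotated start, with 12 bases between them. The single copies begin 186 bases before the start in Mdm2, 185 in Ccng1 and 201 in Bax. A match is a description of the letters and not a measured binding site, and a window without an exact copy says nothing of p53 at that gene.

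Library totals ran from 3906807 to 18494156 counts. The October libraries held 3906807 to 11298160 counts and the March libraries 12224106 to 16925635, so depth went with batch. All 8 markers of alveolar type 2 cells, a cell type of the lung alone, were detected in every library. One library, RIC+DE+PFD 1, stood apart: 38.1% of all tested genes lay more than 1 log2 unit from the median of the other libraries there, against 1.80% to 10.6% in the other 23. DE 1 held the highest summed levels of adipocyte, T cell and B cell markers. RIC+DE and DE share no batch, since all 3 RIC+DE libraries are dated March and all 3 DE libraries October, so that difference was estimated through the batch term of the other groups. In the fit the November library is absorbed by its own batch term, so that fitted values of DE+RIC rest on libraries 1 and 2.

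Between genes, levels were compared per kilobase of exon, as the median over 24 libraries of CPM per kb. Phlda3, a repressor of Akt signalling, was highest at 43.0 CPM per kb, followed by Cdkn1a at 25.4, Ccng1 (cyclin G1, a partner of Mdm2) at 22.2 and Bax, a pore-forming death protein of mitochondria, at 20.95. Mdm2 stood at 13.5 CPM per kb and Trp53inp1, a p53 cofactor in stress and autophagy, at 7.33. The RNA-binding protein gene Zmat3 at 1.78 and the stress cytokine gene Gdf15 at 1.58 followed. Cdkn2a at 0.630 and the death receptor gene Eda2r at 0.398 CPM per kb were lowest. Cdkn2a rested on 2 to 25 counts a library and Eda2r on 7 to 51, so that their values carry a large counting error, whereas the raw counts of Cdkn1a, Mdm2, Ccng1, Phlda3 and Bax were 153 or more in every library.

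**Figure D1:**
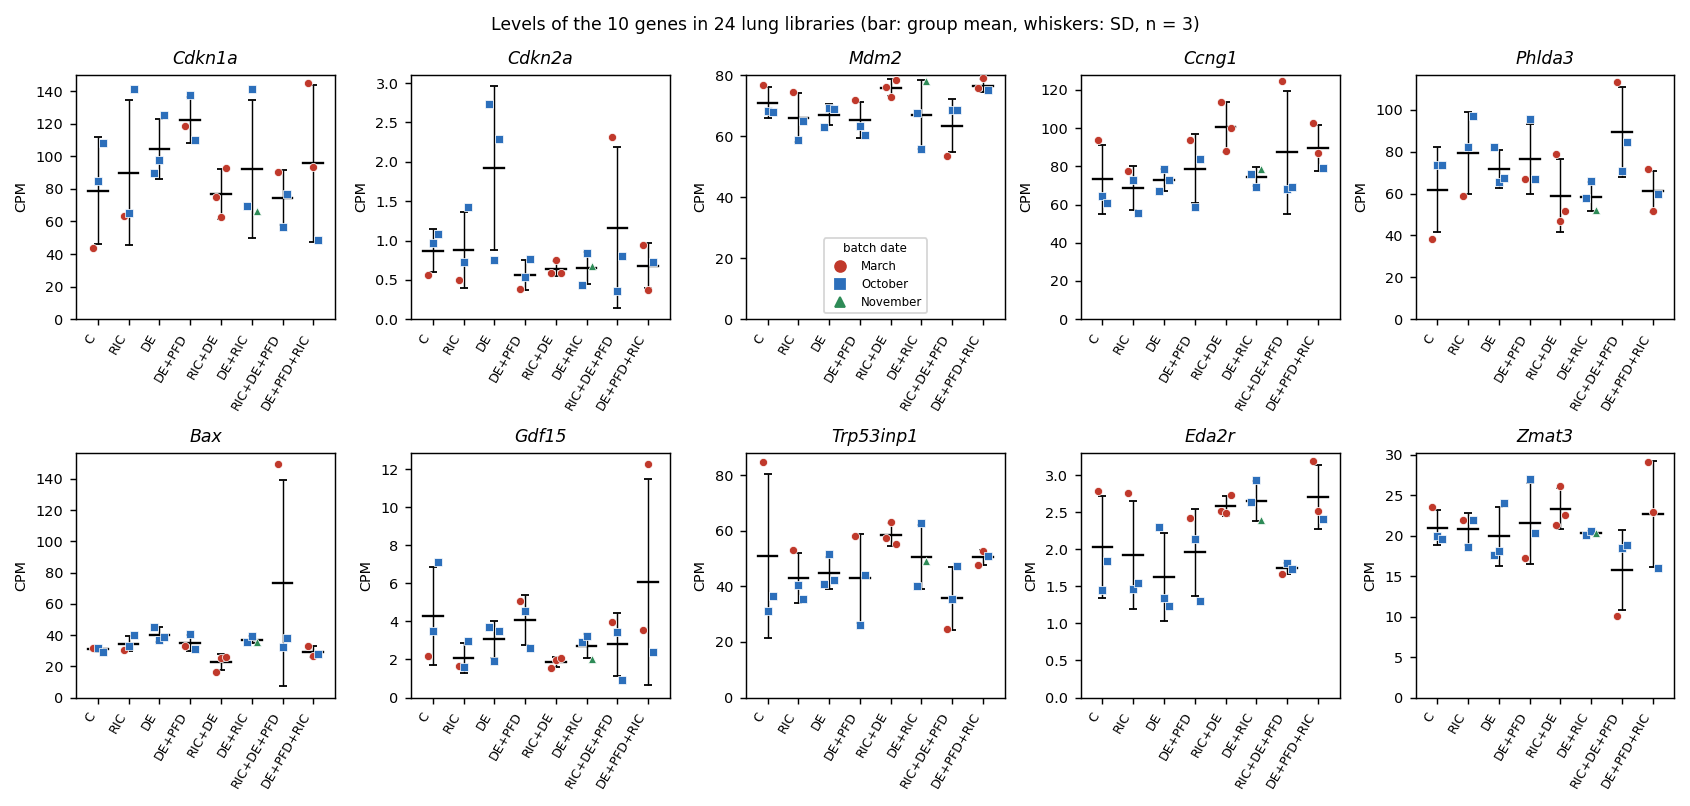
Level of each of the 10 genes in CPM (linear axis from 0) in 24 libraries, by group, with the marker showing the batch date, the bar the group mean and the whiskers the SD (n = 3). The groups overlap for most genes; the Bax value of 150 CPM in RIC+DE+PFD and the Gdf15 value of 12.3 CPM in DE+PFD+RIC stand above all others of their gene.

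Across the 8 groups, the highest group mean was 1.21 times the lowest for Mdm2 and 1.46 to 1.66 times for Ccng1, Zmat3, Phlda3, Cdkn1a, Trp53inp1 and Eda2r. It was 3.24 times for Bax, 3.25 for Gdf15 and 3.44 for Cdkn2a. Libraries of 1 group also spread: the coefficient of variation within a group had a median of 8.06% for Mdm2, 12.9% for Bax, 32.1% for Cdkn1a, 34.5% for Gdf15 and 38.3% for Cdkn2a. Differences between groups made up 23.9% (Cdkn1a) to 48.7% (Eda2r) of the variance of log2 CPM, with a median of 37.0% over the 10 genes against 38.0% over all 17490 genes.

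Diesel exhaust alone moved none of the 10 genes past the threshold. The comparison of DE with C gave 0 of 10 at an adjusted p under 0.05 (edgeR quasi-likelihood test, Benjamini-Hochberg over 17490 genes), beside a background of 0.0% of all genes, and 0 of 10 at an unadjusted p under 0.05, beside 3.33%. Of the 10, 6 lay above 0 and 4 below, with a median log2 difference of 0.09 against 0.00 over all genes. The comparison had limited reach: on simulated counts with the same groups and depths, it recovered 80% of 4-fold changes but 17.2% of 2-fold changes.

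Among the cell cycle inhibitors, Cdkn1a stood at 43.8, 84.7 and 108 CPM in the C libraries and at 89.9, 97.8 and 125 CPM in the DE libraries. The highest C library lay among the DE libraries, and the low value of C 1, dated March, was the lowest of all 24. The fitted log2 difference was 0.40 ± 0.39 (SE; 95% interval -0.43 to 1.22), which allows anything from a fall to a rise of 2.33-fold. The value depended on single libraries: it was 0.11 without C 1, 0.72 without C 3 and 0.25 without DE 3, and 0.11 with the October libraries alone. Cdkn2a, whose gene encodes p16 and p19Arf from overlapping exons that a count per gene cannot tell apart, stood at 0.558, 0.967 and 1.08 CPM in C and at 2.74, 0.746 and 2.29 CPM in DE. DE 1 and DE 3 were above every C library and DE 2 was below 2 of them, on raw counts of 25, 5 and 13 in the 3 DE libraries. Its log2 difference was 1.16 ± 0.61 (95% interval -0.12 to 2.45; edgeR adjusted p = 0.988), and 0.78 ± 0.71 without DE 1, the library with the highest adipocyte, T cell and B cell marker sums. DE 3 followed DE 1 in the T cell sum (167 CPM against 315), the other 22 libraries lying between 61.7 and 151, and the part of these cells in the Cdkn2a level was not tested. In whole tissue, a change in the number of cells of a type and a change in RNA per cell cannot be told apart.

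Of the genes that feed back on p53 or on growth signals, Mdm2 stood at 76.7, 68.3 and 67.7 CPM in C and at 63.1, 69.1 and 68.7 CPM in DE. The groups overlapped and the log2 difference was -0.06 ± 0.14. Ccng1 stood at 93.8, 64.5 and 61.0 CPM in C and at 67.2, 78.4 and 73.0 CPM in DE, and gave 0.18 ± 0.18; the highest C library, dated March, lay above all of DE. Phlda3 stood at 38.3, 73.6 and 73.7 CPM in C and at 82.2, 65.5 and 67.3 CPM in DE, and gave 0.17 ± 0.26. Here C 1 was low, as for Cdkn1a, and the other 2 C libraries lay among those of DE. Zmat3 stood at 23.5, 19.9 and 19.6 CPM in C and at 17.6, 18.1 and 24.1 CPM in DE, with overlapping groups and a difference of -0.10 ± 0.25.

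Of the genes tied to cell death, Bax was the only 1 of the 10 whose DE and C libraries did not overlap, which held for 14.5% of all genes. It stood at 31.7, 31.7 and 29.2 CPM in C and at 45.4, 36.6 and 38.5 CPM in DE. The log2 difference was 0.52 ± 0.36 (95% interval -0.23 to 1.27; edgeR adjusted p = 0.988), and without the library RIC+DE+PFD 1 it was 0.36 ± 0.17 (edgeR adjusted p = 0.873). The summed level of 16 ribosomal protein genes, read as a sign of library quality, separated the same way, at 12098 to 13919 CPM in DE against 9003 to 10925 in C, and the adipocyte marker sum was also higher in every DE library (325 to 2052 CPM against 153 to 323). Their part in the Bax difference was not tested. Trp53inp1 stood at 84.9, 31.3 and 36.4 CPM in C and at 40.7, 51.5 and 42.2 CPM in DE, and gave 0.02 ± 0.32. C 1 held its highest value of all 24 libraries, so that the gene was high in the library where Cdkn1a and Phlda3 were lowest. Eda2r stood at 2.79, 1.45 and 1.84 CPM in C and at 2.30, 1.34 and 1.23 CPM in DE, with overlapping groups and a difference of -0.10 ± 0.33. The secreted factor Gdf15, at 2.17, 3.50 and 7.14 CPM in C and 3.72, 1.94 and 3.52 CPM in DE, gave -0.40 ± 0.58, and the groups overlapped.

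All 18 exposed libraries were also set against the 6 unexposed ones, as the mean of the 6 exposed groups less the mean of C and RIC, which narrows the intervals. Again 0 of the 10 passed (background 0.0%), and 0 reached an unadjusted p under 0.05, beside 3.02% of all genes. The median log2 difference of the 10 was 0.06 against 0.00 over all genes, with a range of -0.04 (Zmat3) to 0.21 (Ccng1). On simulated counts this comparison recovered 69.2% of 2-fold and 36.9% of 1.5-fold changes. Mdm2 gave -0.01 ± 0.08, with a 95% interval of 0.881-fold to 1.12-fold. For Cdkn1a the interval was 0.806-fold to 1.60-fold and for Cdkn2a 0.585-fold to 1.65-fold. None of the 10 intervals reached 2-fold in either direction.

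**Figure D2:**
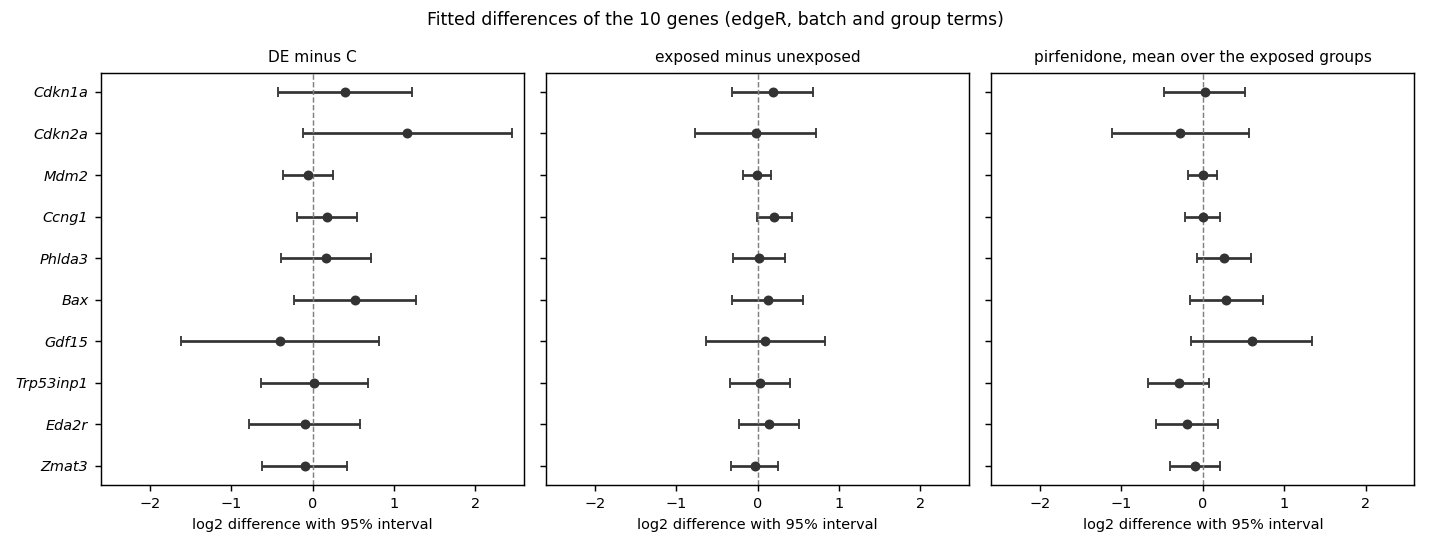
Fitted log2 differences (points) and their 95% intervals (lines) of the 10 genes for DE against C, for exposed against unexposed libraries and for pirfenidone averaged over the exposed groups. Every interval crosses 0; those of Mdm2 and Ccng1 are narrow and those of Cdkn2a and Gdf15 wide.

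The 2 largest of these differences were also fitted within each batch, as 2 groups. Ccng1 gave 0.21 ± 0.10 (edgeR adjusted p = 1.00), with 0.23 ± 0.22 among the March libraries and 0.18 ± 0.10 among the October libraries. Cdkn1a gave 0.18 ± 0.24 over all libraries, 0.84 ± 0.33 among the March libraries and -0.08 ± 0.25 among the October libraries. In March, the 2 unexposed libraries held 43.8 and 63.1 CPM of Cdkn1a and the 7 exposed ones 62.6 to 145, with a median of 92.8. In October, the 4 unexposed libraries held 65.2 to 141 CPM (median 96.5) and the 10 exposed ones 48.7 to 141 (median 93.8). So the median Cdkn1a of exposed libraries was the higher in the batch with 2 unexposed libraries and the lower in the batch with 4. Over all libraries the interval of the difference crossed 0. The batches also differ in treatment. All 7 exposed March libraries had pirfenidone or conditioning, and every DE library is dated October. These fits have no term for treatment, and the difference between batches was not tested.

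Conditioning without exhaust moved none of the 10 genes past the threshold. RIC against C gave 0 of 10 past the threshold (background 0.0%), 0 at an unadjusted p under 0.05 (background 1.2%) and 0 genes whose libraries separated, all 3 higher or all 3 lower (background 4.91%). Gdf15 had the largest difference, with 1.66, 1.61 and 2.97 CPM in RIC against 2.17, 3.50 and 7.14 CPM in C, a log2 difference of -1.07 ± 0.59, and 1 RIC library within the range of C.

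The treated exposed groups were each compared with DE. These 5 comparisons share the 3 DE libraries, as does the comparison of DE with C, so a value that is high or low in DE enters all of them. In all 5, 0 of the 10 genes passed the threshold (background 0.0% in each). Across all 12 comparisons, 9 of 120 values of the 10 genes (7.5%) had an unadjusted p under 0.05, against 7.43% of the values of all genes. DESeq2 called 1 of 120, Bax in the interaction described further on, and called 2 to 1912 of all genes per comparison.

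For pirfenidone, DE+PFD against DE gave 1 gene at an unadjusted p under 0.05 (background 2.84%) and none that separated (background 11.2%). That gene was Cdkn2a, at 0.378, 0.535 and 0.761 CPM in DE+PFD against 2.74, 0.746 and 2.29 in DE, with a log2 difference of -1.77 ± 0.67 (edgeR adjusted p = 1.00). The highest DE+PFD library lay above the lowest DE library, and the DE+PFD counts were 5, 2 and 7. The B cell sum was lower in every DE+PFD library than in every DE library (134 to 205 CPM against 292 to 658), while the T cell sums overlapped. The part of these cells was not tested. Without DE 1 the Cdkn2a difference was -1.39 ± 0.76. Cdkn1a, by contrast, was at its highest group mean in DE+PFD, 122 ± 14.2 CPM (SD, n = 3) against 104 ± 18.6 in DE and 79.0 ± 32.6 in C; the log2 difference from DE was 0.24 ± 0.40. Averaged over the 3 pairs of exposed groups with and without pirfenidone, 0 of 10 passed (background 0.0%) and 0 had an unadjusted p under 0.05 (background 4.3%). The averaged values ran from -0.30 ± 0.18 for Trp53inp1 to 0.60 ± 0.36 for Gdf15.

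For preconditioning, RIC+DE against DE gave 1 gene at an unadjusted p under 0.05, against 17.3% of all genes, and 5 genes whose libraries separated, against 41.6% of all genes. Bax stood at 16.6, 25.4 and 26.1 CPM in RIC+DE against 45.4, 36.6 and 38.5 CPM in DE, a log2 difference of -1.25 ± 0.42 (edgeR adjusted p = 0.274). Without RIC+DE+PFD 1 it was -0.77 ± 0.20 (edgeR adjusted p = 0.200), and without DE 1 as well -0.66 ± 0.22 (edgeR adjusted p = 0.284). Several sums were lower in every RIC+DE library than in every DE library, as Bax was. The ribosomal protein sum was 5171 to 7115 CPM against 12098 to 13919, and the alveolar type 2 sum 12979 to 24782 against 29877 to 41884. The sum of ciliated and club cell markers was 19586 to 29532 CPM against 34709 to 63353, that of T cells 61.7 to 88.1 against 119 to 315 and that of B cells 127 to 167 against 292 to 658. Sums of the pathway lists read further on separated in both directions. The p53 regulators were higher, at 890 to 930 CPM in RIC+DE against 750 to 783 in DE. The other cell cycle inhibitors were too, at 249 to 272 against 210 to 216. Further p53 targets were lower, at 2300 to 2660 against 2827 to 3022, and p21-repressed genes at 203 to 214 against 224 to 303. The secretory and integrated stress response sums were also lower. Mdm2, Ccng1, Trp53inp1 and Eda2r were higher in every RIC+DE library than in every DE library, but with the batch term their log2 differences were 0.10 ± 0.17, -0.01 ± 0.21, -0.02 ± 0.36 and 0.14 ± 0.36. The raw separation of Ccng1, at 88.0 to 114 CPM against 67.2 to 78.4, thus left no fitted difference. RIC+DE 1 and RIC+DE 3 also held skeletal muscle marker sums of 2454 and 1227 CPM against 8.12 to 47.9 in the other 22 libraries, and the part of library quality, muscle or other cell types in these levels was not tested.

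For perconditioning, DE+RIC against DE gave 2 genes at an unadjusted p under 0.05 (background 3.23%) and 1 that separated (background 12.3%). Eda2r stood at 2.63, 2.93 and 2.39 CPM against 2.30, 1.34 and 1.23 in DE, with a log2 difference of 0.74 ± 0.34 fitted on DE+RIC 1 and 2 (edgeR adjusted p = 1.00). Every DE+RIC library was above every DE library, though by little for the nearest pair, and the raw counts in DE were 21, 9 and 7. Cdkn2a gave -1.64 ± 0.73, fitted on the same libraries, at 0.439, 0.839 and 0.675 CPM in DE+RIC, 1 of which lay above DE 2. Without DE 1 this value was -1.26 ± 0.81. The T cell sum (91.4 to 112 CPM against 119 to 315) and the B cell sum (188 to 272 against 292 to 658) were also lower in every DE+RIC library than in every DE library, and their part was not tested.

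With pirfenidone and conditioning together, RIC+DE+PFD against DE gave 0 genes at an unadjusted p under 0.05 (background 9.52%) and 0 that separated (background 12.0%). DE+PFD+RIC against DE gave 1, Cdkn2a at -1.47 ± 0.68 (edgeR adjusted p = 0.526, background 9.23%). Without DE 1 this value was -1.10 ± 0.77. The T cell sum was lower in every DE+PFD+RIC library than in every DE library (62.9 to 109 CPM against 119 to 315), while the B cell sums overlapped. Their part was not tested. In that comparison 4 genes separated, Mdm2, Ccng1 and Eda2r upward and Bax downward, against 28.2% of all genes, and 2 of the 3 DE+PFD+RIC libraries are dated March. With the batch term, DESeq2 gave log2 differences of 0.13 ± 0.14 for Mdm2 and -0.04 ± 0.20 for Ccng1. For Eda2r it gave 0.30 ± 0.42 and for Bax -0.75 ± 0.40. Gdf15 had its highest value of all in DE+PFD+RIC 2, 12.3 CPM on 195 counts, while the other 2 libraries of the group held 3.54 and 2.40 CPM.

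**Figure D3:**
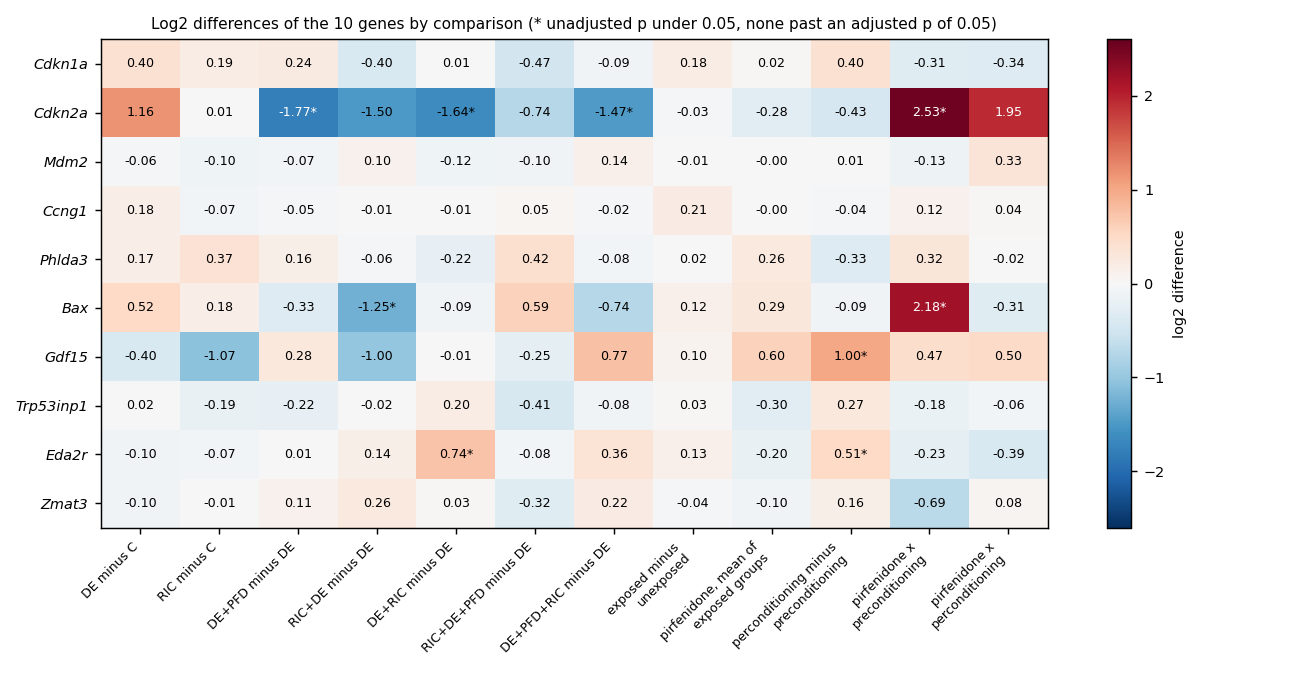
Log2 differences of the 10 genes (rows) in 12 comparisons (columns), on a colour scale from -2.6 to 2.6, with a star at an unadjusted p under 0.05. A star marks 9 cells, 4 of them in the Cdkn2a row, and none passed an adjusted p of 0.05.

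Perconditioning was set against preconditioning directly, averaged over the groups with and without pirfenidone. None of the 10 passed (background 0.0%), and 2 had an unadjusted p under 0.05 (background 5.27%). These were Gdf15 at 1.00 ± 0.44 (edgeR adjusted p = 0.920) and Eda2r at 0.51 ± 0.23 (edgeR adjusted p = 0.927). The Gdf15 value was 0.41 without DE+PFD+RIC 2.

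The smallest adjusted p of the 10 genes was found in the interaction of pirfenidone and preconditioning, the change with pirfenidone in preconditioned mice less that in mice exposed alone. Bax gave 2.18 ± 0.52 (edgeR adjusted p = 0.0742; DESeq2 adjusted p = 0.0257) and Cdkn2a 2.53 ± 0.97 (edgeR adjusted p = 0.112). In edgeR this made 0 of 10 past the threshold (background 0.0%) and 2 of 10 at an unadjusted p under 0.05, against 27.2% of all genes. The DESeq2 call of Bax stands beside 2 to 1912 of all genes called by DESeq2 over the 12 comparisons. The interaction with perconditioning gave 0 past the threshold (background 0.0%) and 0 at an unadjusted p under 0.05 (background 2.69%).

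The size of the Bax interaction rested on 1 library. In RIC+DE+PFD, Bax stood at 150, 32.4 and 38.4 CPM, so that library 1 lay far above the others of its group and above the highest of the remaining 23 libraries, 45.4 CPM. Without RIC+DE+PFD 1 the interaction was 0.77 ± 0.30 for Bax (edgeR adjusted p = 0.921) and 0.60 ± 0.97 for Cdkn2a (edgeR adjusted p = 0.949). The unadjusted edgeR p of Bax was then 0.018, beside 4.5% of all genes under 0.05. This interaction also sets RIC+DE, all dated March, against DE, all dated October. RIC+DE+PFD 1 held the highest Phlda3 (113 CPM) and Ccng1 (125 CPM) and the lowest Mdm2 (53.6 CPM), Trp53inp1 (24.5 CPM) and Zmat3 (10.0 CPM) of all 24. Relative to the median of the other 23 libraries, Bax was 2.18 log2 units higher, Cdkn2a 1.45, Phlda3 0.76 and Ccng1 0.68, while Zmat3 was at -1.01, Trp53inp1 at -0.95, Mdm2 at -0.36 and Cdkn1a at 0.01. Targets of p53 thus lay on both sides of the median in it. The summed level of the 16 ribosomal protein genes was 41872 CPM there, against 5171 to 13919 in the others, and that of 8 alveolar type 2 markers was 89432 CPM, against at most 43620. Bax, Phlda3 and Cdkn2a, which were high, have 1576, 1559 and 1172 bases of exon, and Zmat3 and Trp53inp1, which were low, have 11435 and 6475. Gdf15 (1852 bases) was at 0.44, Eda2r (5891 bases) at -0.47, and Mdm2 has 5083 bases. Ccng1, at 0.68, and Cdkn1a, at 0.01, have like lengths of 3512 and 3553 bases. The part of RNA quality, transcript length or cell makeup in these values was not tested. At the other end, the lowest Bax of all (16.6 CPM) was in RIC+DE 1, the library with the lowest ribosomal protein sum.

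**Figure D4:**
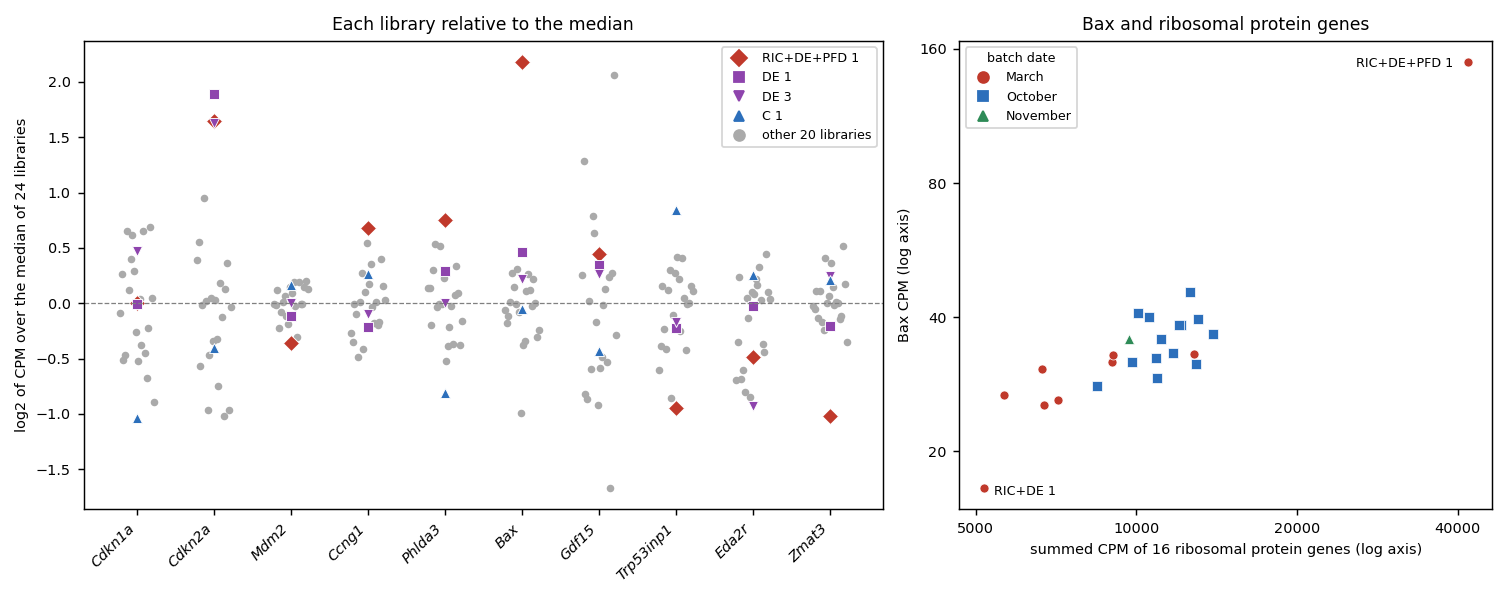
Left, log2 of CPM over the 24-library median for each gene, with RIC+DE+PFD 1, DE 1, DE 3 and C 1 marked and the other 20 libraries in grey; right, Bax CPM against the summed CPM of 16 ribosomal protein genes, both on log axes, coloured by batch date. RIC+DE+PFD 1 is the highest library for Bax (150 CPM) and the lowest for Zmat3 (10.0 CPM), and it is far to the upper right of the other 23 libraries.

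Ccng1 varied more between batches (63.9% of its variance) than between groups (36.0%); the shares overlap, since groups hold unequal parts of each batch. The March less October difference was examined after the values had been seen. In it, 0 of 10 passed the threshold (background 0.00572%), and 2 had an unadjusted p under 0.05 (background 14.8%). Ccng1 gave a log2 difference of 0.48 ± 0.11 (edgeR adjusted p = 0.0912; DESeq2 adjusted p = 0.00637) and Eda2r 0.49 ± 0.20 (edgeR adjusted p = 0.262). This result depended on RIC+DE+PFD 1. Without that library 2 of the 10 passed, beside 13.2% of all genes: Ccng1 at 0.39 ± 0.11 (edgeR adjusted p = 0.0223) and Trp53inp1 at 0.65 ± 0.17 (edgeR adjusted p = 0.0208). Without DE 1 as well 3 passed, beside 13.9% of all genes, the third being Eda2r at 0.63 ± 0.19 (edgeR adjusted p = 0.0377). Batch made up 34.5% of the variance of Eda2r and 29.1% of that of Mdm2, with a median of 12.5% over the 10 genes and 8.34% over all genes. Ccng1 stood at 77.6 to 125 CPM in the 9 March libraries, 55.7 to 83.9 in the 14 October libraries and 78.4 in the November library. The March and October ranges overlapped between 77.6 and 83.9 CPM.

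Other genes of the pathway were read as lists. In DE against C, where 49.9% of all genes lay above 0, the 16 regulators of p53 had 0 past the threshold and 6 above 0. Their median log2 difference was -0.15. Trp53, which encodes p53 itself, had group means of 68.1 CPM in DE and 55.7 in C and a log2 difference of 0.23 ± 0.17, and Chek2, a kinase that signals DNA damage to p53, gave 0.41 ± 0.23. Of 38 further p53 targets, 0 passed, 22 lay above 0 and the median was 0.04. The damage recognition gene Xpc gave -0.31 ± 0.15 and the death receptor gene Fas 0.35 ± 0.23.

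In the same comparison, 7 of 8 other cell cycle inhibitors of senescence were tested and 0 passed, with a median of -0.23, and Cdkn1b (p27) gave -0.29 ± 0.21. The summed level of this list was lower in every DE library than in every C library, at 210 to 216 CPM against 225 to 272. The sums of the other pathway lists overlapped between DE and C. Of 35 tested secretory and surface genes of senescence 0 passed and 18 lay above 0, with a median of 0.00. The largest of these by its test was the chemokine gene Ccl8 at 1.43 ± 0.48 (edgeR adjusted p = 0.988). Of 28 cell cycle genes that p21 is known to repress, 0 passed, but 25 lay above 0 with a median of 0.32, against 49.9% of all genes above 0. Aurka, a mitotic kinase, gave 0.88 ± 0.32 and Birc5 (survivin) 0.66 ± 0.40. Without DE 1, however, 15 of the 28 lay above 0 and the median was 0.02, so the direction of that list depended on DE 1.

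Lists of 2 other responses were read beside these. Of 15 tested genes of the integrated stress response, which can raise Gdf15 without p53, 0 passed and 10 lay above 0, with a median of 0.21 (0.13 without DE 1). Psat1, of serine synthesis, gave 0.68 ± 0.25 and the transcription factor gene Ddit3 0.65 ± 0.34. Of 23 glucocorticoid and clock genes (Cdkn1a is also known to be under clock control), 0 passed and 8 lay above 0, with a median of -0.16 (0.05 without DE 1). The clock repressor gene Cry1 gave -1.01 ± 0.48.

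For exposed against unexposed libraries, the lists gave the same picture of small values, and 0 genes of any list passed. The further p53 targets had 24 of 38 above 0 with a median of 0.08 and the regulators 5 of 16 with -0.03. The p21-repressed genes had 13 of 28 with -0.01, beside 51.0% of all genes with a median of 0.00. Plk2, a p53-induced kinase, gave -0.26 ± 0.10, and Fas 0.28 ± 0.13. In the interaction of pirfenidone and preconditioning, 0 of the 38 further targets passed. Of them 20 lay above 0 with a median of 0.03, beside 48.0% of all genes with a median of -0.05. An unadjusted p under 0.05 was found for 9 of the 38, beside the 27.2% of all genes. Rps27l gave 2.46 ± 0.66 and Gpx1, a glutathione peroxidase, 1.83 ± 0.49 (edgeR adjusted p = 0.0742 for both). Without RIC+DE+PFD 1 these values were 0.73 ± 0.49 and 0.51 ± 0.26 (edgeR adjusted p = 0.921 for both), and 2 of the 38 had an unadjusted p under 0.05, beside 4.5% of all genes.

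Levels of the 10 genes were then compared with each other across libraries. Over the 24 libraries, with the mean of each batch taken away, the 45 pairs had a median Pearson correlation of -0.01 (log2 CPM), against 0.00 over pairs of all genes, and a range from -0.75 to 0.57. Of the 45 pairs 20% lay beyond 0.5 in either direction, against 24.5% of pairs of all genes; without RIC+DE+PFD 1 these shares were 4.44% and 8.54%. Some of the strongest pairs changed without RIC+DE+PFD 1: Bax and Cdkn2a were at 0.57 with it and 0.26 without it, Bax and Mdm2 at -0.75 and -0.28, and Bax and Zmat3 at -0.63 and 0.25. Trp53inp1 and Phlda3 stayed at -0.58 without it (-0.75 with it). Cdkn1a and Phlda3 were at 0.51 without it and 0.44 with it. These are descriptions over libraries that share depth and batch, with no test.

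**Figure D5:**
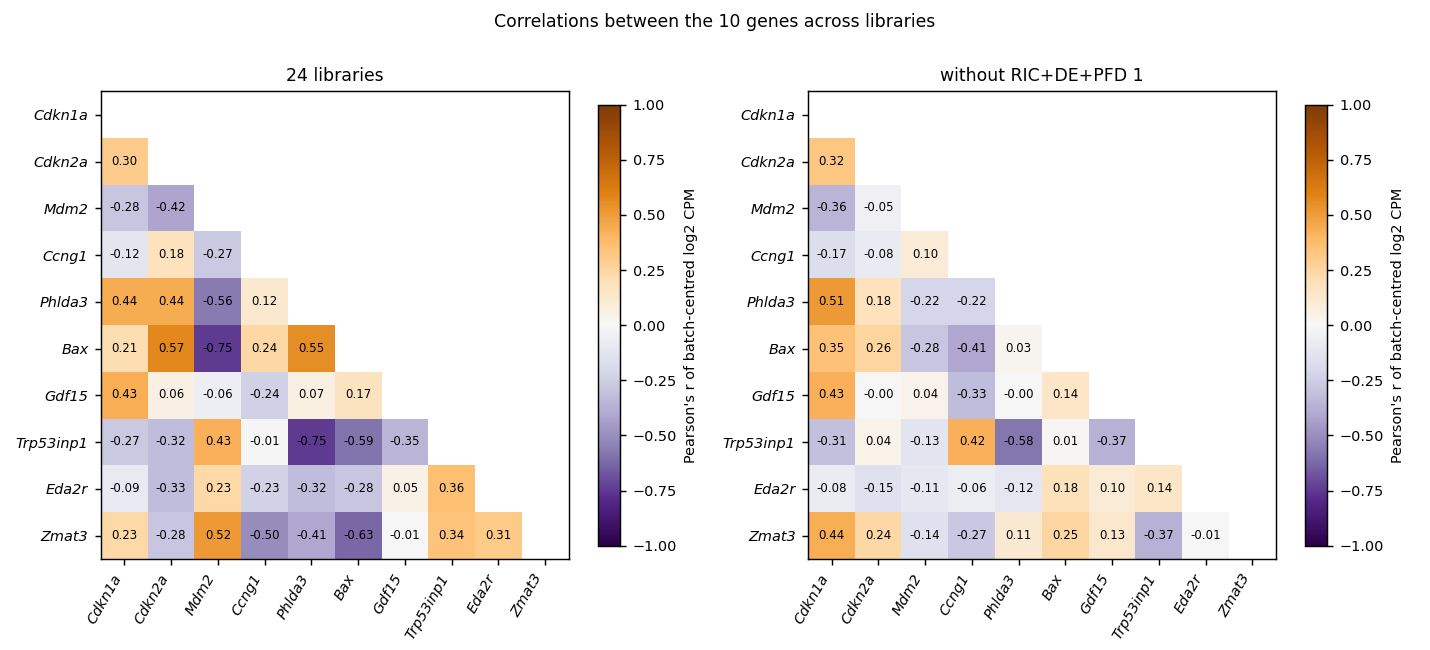
Pearson correlations between the 10 genes over 24 libraries (left) and without RIC+DE+PFD 1 (right), on log2 CPM less the mean of each batch, with colour from -1 to 1. The Bax value with Mdm2 is -0.75 on the left and -0.28 on the right, while that of Trp53inp1 with Phlda3 is -0.75 and -0.58.

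For each gene with a mean of at least 5 CPM, the genes with the most similar pattern over the 24 libraries were listed by the same correlation. For Cdkn1a these were Grk5 at 0.79, Pde10a and Nptx2 at 0.75, and Grk5 was again first without RIC+DE+PFD 1, at 0.80. For Mdm2 they were Taf2 at 0.90, Xpo5 and Dhx38 at 0.88, and 2 of these 3 were again among the first 3 without that library. For Bax they were Prelid1 at 0.97, Erp29 at 0.97 and the ribosomal protein gene Rpl18 at 0.97, and 0 of these 3 were among the first 3 without it. For Ccng1 (Nqo2 at 0.84), Phlda3 (Ndufaf6 at 0.83) and Trp53inp1 (Tmx3 at 0.91) 0 of 3 stayed, and for Zmat3 (Crebbp at 0.91) 1 of 3. None of the first 3 of any gene was another of the 10, since these were left out of the search.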

How the data were processed

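The values are gene counts, deposited by the authors as 1 table of 24 libraries with Ensembl identifiers. Per the submitters' processing notes, the tools were FastQC 0.12.1, fastp 0.23.4, STAR 2.7.11b, featureCounts, R 4.4.1 and DESeq2, with the build GRCm39. How the counting treated strand is not stated in the labels. Symbols and exon lengths came from a GENCODE annotation of another build (GRCm38), used for names and lengths only. Symbols matched 51486 of 78275 identifiers, which hold 98.4% of the counts.

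From the counts, edgeR 4.0.16 (R 4.3.3) was fitted to all 24 libraries with group and batch terms, after its default filter and TMM scaling, and quasi-likelihood tests were adjusted by Benjamini-Hochberg over 17490 genes, with a threshold of 0.05. CPM, the usual per-library scaling of counts, use the TMM-scaled library size. Intervals are 95% intervals from the fitted SE. Correlations use log2 CPM with a prior count of 2. The scripts were tested on simulated counts. No 2 libraries of a group agreed within sampling noise (chi-square per gene at least 5.64).

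All 10 members are named throughout. From each other list, up to 3 genes past the threshold in each direction were to be named, or, where none passed, up to 2 with the smallest p at a mean of at least 1 CPM. Members, lists and markers were chosen with earlier results of these data known, so no list is independent evidence. As alternatives, the tests were rerun in DESeq2 1.42.0, with that tool's size factors in edgeR, without the filter or at 1 CPM in 3 libraries, without batch or with November merged into October, within single batches, with a replicate block, and with libraries left out.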

Additional observations from a re-analysis of the deposited data

How the results depend on the processing

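The count of the 10 genes past the threshold was 0 in each of the 12 comparisons and stayed at 0 in 399 of 406 alternative fits. It became 1 for RIC+DE against DE with no filter on low counts. For the interaction of pirfenidone and preconditioning it was 1 with DESeq2, 1 with no filter and 1 with no batch term. With 1 library left out it was 0 to 2 (1 without RIC 1 or without RIC+DE+PFD 3, 2 without RIC+DE+PFD 2). The cause was not tested. The shares of all genes in these single fits are not given here, so these counts say nothing particular about the 10 genes. For the March less October difference the count of the 10 was 0 and stayed at 0 in 28 of 31 alternative fits. It was 1 with DESeq2, 2 without RIC+DE+PFD 1 and 3 without the 2 libraries RIC+DE+PFD 1 and DE 1. Over all genes the counts of the 12 comparisons moved more: 2 to 1912 with DESeq2, 63 to 2179 with no filter, 0 to 1653 with no batch term, 0 to 41 with the October libraries alone and 0 to 2879 with 1 library left out. Of the 120 differences of the 10 genes, 70 had another sign under at least 1 alternative, so signs of small values should not be read. Same-numbered libraries did not vary together as a set (84 pairs, correlation -0.39 to 0.41, median 0.00, 16 over 0.1). Of 24 libraries, 6 correlated best with their own number. Single pairs lay on both sides, such as C 1 with RIC 1 at 0.38 and RIC 1 with RIC+DE+PFD 1 at -0.39. Weak correlations cannot exclude a pairing, and none was assumed in the main fit. With a replicate block, 0 of the 10 genes passed with or without the batch term, and 0 to 16 or 0 to 30 of all genes did. Depth limits Cdkn2a, Eda2r and Gdf15, whose lowest libraries held 2, 7 and 8 counts.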
